A study of Mus musculus with 12 samples.

Results

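Peaks of H3K9me2 and H3K9me3 were examined in 3 Mb at the distal end of mouse chromosome 4, chr4:145000000-148000000 of the mm9 build, which holds the zinc finger gene Zfp600 and its relatives. Every peak of the 8 deposited lists that overlapped this window by at least 1 bp was taken, which gave 1063 of the 19759 peaks on chromosome 4 (5.38%) and of the 266606 peaks in all (0.399%). The window was chosen by its peak counts and covered bases in these same lists, so the numbers of peaks, the bases they covered and the difference between diets are given as a description and without a test. On either side the lists went on: in the SCD WAT H3K9me3 list the nearest peak before the window lay at 144549773-144550373 (score 58.3) and its first inside at 145053488-145054580 (score 43.9), while the last inside lay at 147972944-147973423 (score 30.4) and the next one beyond at 148137982-148138518 (score 35.6).

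The material was brown adipose tissue (BAT) and subcutaneous white adipose tissue (WAT) of wild-type C57BL/6J mice. From 6 weeks of age they were fed for 12 weeks with either standard chow (SCD) or high-fat food (HFD). Chromatin was fixed in 1% formaldehyde for 8 min before immunoprecipitation. There was 1 library for each diet, tissue and mark, so no spread between animals could be measured, no p-value is given, and the exact (Clopper-Pearson) 95% intervals cover counting error only. Whether a library held tissue of 1 mouse or of several was not stated. The marks are named as the libraries are labelled. The study's methods pair the H3K9me2 libraries with an antibody described as tri-methyl specific and the H3K9me3 libraries with one described as di-methyl specific, so which mark each list holds cannot be told apart from the sources. In whole tissue, fewer cells carrying a mark and less of the mark per cell cannot be told apart either. The identity of the tissues was not checked, since peak lists hold no expression values.

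Histone H3 methylated at lysine 9 marks silent chromatin. The di-methyl form, laid down mainly by EHMT1 and EHMT2, spreads over broad repressed domains, and the tri-methyl form, laid down by SETDB1 and the SUV39H enzymes, marks repeats and heterochromatin and is bound by HP1 proteins. C2H2 zinc finger genes often lie in clusters that grew by duplication. Many of their proteins carry a KRAB domain, which brings TRIM28 and SETDB1 to retroviral and other repeated sequences, and clusters of such genes are themselves a well-known location of H3K9me3.

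GENCODE annotation of the same build placed 45 protein-coding genes in the window. Of these, 18 were zinc finger genes with 3 to 20 C2H2 matches in the translated coding sequence (median 11.5), and they lay together in a stretch of 1.92 ungapped Mb, chr4:145100662-147222475, with 46 pseudogenes and 4 other genes. A pair of these 4 are models of Gm13151, which RefSeq names Zfp988, with fewer than 3 C2H2 matches in the annotated coding sequence. The other 23 genes followed beyond it. The stretch had a GC content of 40.3% against 42.3% for the chromosome, and 4 assembly gaps of 50000 bases. It was built of repeated sequence: of its 150-base words, 49.2% occurred at a single place in the genome, against 94.9% of words sampled from the rest of chromosome 4, and for 87.2% of the repeated words every copy lay inside the window. For 50-base words the values were 27.1% and 88.6%. The study's methods state that reads mapping to several places were removed, and the read length is not given in the sources used here. The part of the stretch in which a peak could be called at all was therefore not tested.

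The peaks of all lists merged into 494 separate regions of the window, 372 of them in the zinc finger stretch. In the stretch, 17 regions (4.57%) had a peak in all 8 lists and 181 (48.7%) had one in the SCD WAT H3K9me3 list alone. Of these 181, 80 had a score of 50 or more (median of all 47.2). The SCD WAT lists go down to a score of 30 and the others to 50, and the part of this in the number 181 was not tested. Regions of all 8 lists and those of that list alone differed in sequence. Every one of the 17 regions seen in all lists had at least 90% identity over at least 50% of the shorter region with another of the 17, and they fell into 5 families of 2 to 5 copies, named A to E here. To show what the families look like, the 150 bases with the most CG pairs are printed from mm9 for families A, C and D, with CG pairs in capitals. They are followed by the 150 bases at the middle of the highest-scoring SCD WAT H3K9me3 peak of the window and of the highest-scoring region found in that list alone. All are on the plus strand and none touches an exon of a protein-coding gene.
Family A, chr4:146207227-146207376: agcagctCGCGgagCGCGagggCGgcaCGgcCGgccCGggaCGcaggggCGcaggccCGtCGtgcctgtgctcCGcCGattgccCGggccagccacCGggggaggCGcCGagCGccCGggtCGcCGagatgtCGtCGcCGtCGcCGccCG
Family C, chr4:146316415-146316564: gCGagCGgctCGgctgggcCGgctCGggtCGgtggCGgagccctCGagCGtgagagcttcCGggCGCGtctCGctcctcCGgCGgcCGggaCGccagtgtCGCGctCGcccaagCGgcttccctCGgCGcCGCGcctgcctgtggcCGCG
Family C, least similar copy, chr4:146649916-146650065: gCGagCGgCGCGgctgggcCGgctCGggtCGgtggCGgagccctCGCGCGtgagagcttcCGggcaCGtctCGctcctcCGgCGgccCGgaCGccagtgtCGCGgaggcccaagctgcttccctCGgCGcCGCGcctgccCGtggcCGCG
Family D, chr4:145953589-145953738: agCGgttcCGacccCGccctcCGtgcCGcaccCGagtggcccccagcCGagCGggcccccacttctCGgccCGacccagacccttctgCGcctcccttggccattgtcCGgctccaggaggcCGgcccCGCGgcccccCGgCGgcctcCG
Highest SCD WAT H3K9me3 peak, chr4:146775119-146775268: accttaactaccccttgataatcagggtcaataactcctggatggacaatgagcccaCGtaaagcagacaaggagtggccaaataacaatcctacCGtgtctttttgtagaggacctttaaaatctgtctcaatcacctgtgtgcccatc
Highest region of the SCD WAT H3K9me3 list alone, chr4:146615965-146616114: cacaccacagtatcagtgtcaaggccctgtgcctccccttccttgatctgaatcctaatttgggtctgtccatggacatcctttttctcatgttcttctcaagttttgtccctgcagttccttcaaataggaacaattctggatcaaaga
The family A sequence holds 28 CG pairs in its 150 bases, the first family C sequence 27 and the family D sequence 18, at GC contents of 81.3%, 79.3% and 78.7%. The SCD WAT H3K9me3 sequences hold 2 and 0 CG pairs at 44.7% GC each. The family stretches were picked for the most CG pairs and the other sequences by their middle. The counts therefore do not compare the regions. The same 150 bases of family A stood letter for letter in 3 of its 5 window copies, those of family D in 2 of 6, and those of family C in 1 of 6. Compared base by base without gaps, the least similar window copy matched the printed stretch at 76.7% of positions in family A, 94% in family C and 84% in family D.

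Whole regions can be compared, since they were taken without regard to CG pairs. The 17 regions of all 8 lists had a median GC content of 55% (47.9 to 60.5%) and a median ratio of observed to expected CpG of 0.670 (0.444 to 0.917), at a median width of 1739 bp. The 181 regions of the SCD WAT H3K9me3 list alone had medians of 43.8% GC, 0.105 for the CpG ratio and 718 bp. In the rest of chromosome 4 the 210 regions seen in all 8 lists had medians of 59.1% and 0.559, and the 758 seen in the SCD WAT H3K9me3 list alone had 51.5% and 0.196. Regions seen in 1 other list only had medians of 44.2% and 0.155 in the stretch (46 regions), and 52.6% and 0.225 in the rest. Those of 2 to 7 lists had 46.3% and 0.213 in the stretch. A low CpG ratio was therefore not particular to the SCD WAT H3K9me3 list. The contrast between CpG-rich shared regions and CpG-poor regions of that list was present on the whole chromosome, with lower values in the stretch for the latter. Both kinds were repeated within the cluster: 153 of the 181 (84.5%) had a similar region in the stretch by the same rule, as did 318 of all 372 (85.5%), against 2 of 122 (1.64%) among the regions of the window outside the stretch.

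**Figure D1:**
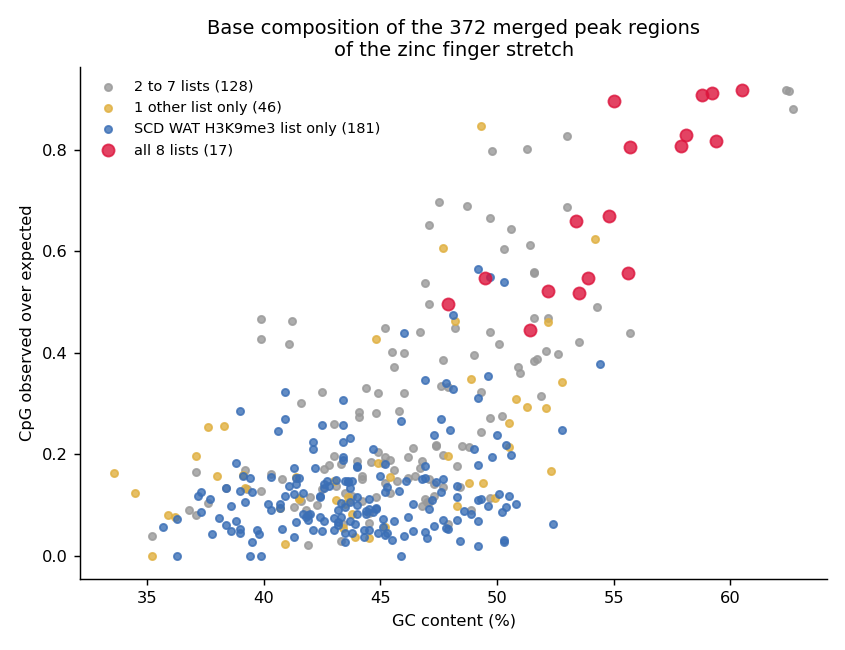
GC content (%, x axis) against observed over expected CpG (y axis) for the 372 merged regions of the zinc finger stretch, 1 point per region. The 17 regions with a peak in all 8 lists lie at 47.9 to 60.5% GC and 0.444 to 0.917. The 181 of the SCD WAT H3K9me3 list alone, 80 of them with a score of 50 or more, have medians of 43.8% and 0.105. The 46 of 1 other list only have medians of 44.2% and 0.155.

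Family A comprised the regions over the pseudogenes Gm13244, Gm13233 and Gm13169, which matched each other at 99.1 to 99.6%. They held the top score of the window in 4 of the 8 lists. Scores are the fifth column of the lists, read as the MACS scale on which a higher value stands for a smaller p-value, and they were not scaled between libraries, so they are compared within a list. The copy at Gm13169, chr4:146206221-146207888, scored 648 in SCD BAT H3K9me2 and 412 in HFD BAT H3K9me2. It scored 2251 and 2084 in the SCD and HFD BAT H3K9me3 lists. In WAT it scored 846 (SCD) and 746 (HFD) for H3K9me2, and 100 (SCD) and 623 (HFD) for H3K9me3. It was therefore above 99.2 to 99.9% of the chromosome 4 peaks of the 7 other lists, and above 92.1% of those of SCD WAT H3K9me3. The copies at Gm13244 and Gm13233 stood above 76.1% and 77.5% of the peaks of that list and above 96.5 to 99.8% of those of the others. A pair of more distant copies, each 92.1% identical to that at Gm13169, had a peak in fewer lists. The one at chr4:145929988-145931609 had a peak in 6 lists and lacked one in HFD BAT H3K9me2 and HFD WAT H3K9me3. The one at chr4:146475348-146476969, over Gm13142, had one in 5 and lacked one in HFD BAT H3K9me2 and in both HFD WAT lists. In SCD BAT H3K9me3 they scored 770 and 848, above 95.1% and 96.2% of the chromosome 4 peaks of that list. In HFD BAT H3K9me3 they scored 228 and 212, above 78.1% and 76.5%. All the peaks these copies lacked were in HFD lists. In SCD WAT H3K9me3, however, they scored only 33.3 and 44.4, below the lowest score of any HFD list. With the same lowest score, both would lack a peak in SCD WAT H3K9me3 too. The part of this difference between lists in the missing HFD peaks was not tested.

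Family B joined the regions over Gm13238, Gm13241 and Gm13146, and all its 3 genomic copies were in the window and in all 8 lists. The region at Gm13238, chr4:145425915-145428193, scored 393 and 431 in SCD and HFD BAT H3K9me2 and 1940 and 2633 in BAT H3K9me3. In WAT it scored 587 (SCD) and 733 (HFD) for H3K9me2 and 50.7 (SCD) and 847 (HFD) for H3K9me3. The last pair spans the lowest and the highest rank of this copy, above 68.7% of the chromosome 4 peaks in SCD and, after rounding, above 100% in HFD.

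Family C had 6 copies in the window, 5 of them 91.9 to 94.7% identical to the copy at Gm13140 that was searched with, and each had a peak in 7 or 8 lists. They lay over Smarca5-ps, Gm13231, Gm13034, Gm13140, Gm13135 and Gm13136. A further copy in the genome lay on chromosome 8, where chr8:83257589-83263932 overlaps Smarca5, which encodes the ATPase of ISWI chromatin remodellers. That copy had a peak in 7 lists. Aligned pieces up to 3000 bp apart were joined, and this copy spans more bases than those of the window. A peak between its pieces would be counted, so its number of lists is not directly comparable. The Smarca5 copy scored 148 and 116 in SCD and HFD BAT H3K9me2 and 427 and 390 in BAT H3K9me3. It scored 75.2 and 120 in SCD and HFD WAT H3K9me2 and 31.9 in SCD WAT H3K9me3, with no peak in HFD WAT H3K9me3. In the window the copy at Gm13135, chr4:146648907-146650645, scored 931 and 1677 in SCD and HFD BAT H3K9me3 and 257 in SCD WAT H3K9me3, the highest of the family in these lists. In HFD WAT H3K9me3 it scored 438 and the copy at Gm13140 508.

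Family D had 6 copies, all in the window and each with a peak in 7 or 8 lists, over Gm13243, Gm13240, Gm13168, Gm13162, Vmn2r-ps19 and 1 place with no annotated gene. In both SCD WAT lists it ranked near the top, above 95.8 to 99.2% of the chromosome 4 peaks for H3K9me2 and above 95.2 to 99.2% for H3K9me3. In SCD BAT H3K9me2 it stood lower, above 62.7 to 90.7%. The 1188 bases at chr4:145953118-145954305 were matched at 100% identity by chr4:146498478-146499665. Neither of the merged regions there held a 150-base word found at a single place in the genome, and both had a peak in all 8 lists. How reads came to be placed there despite the stated removal was not tested. Family E was of another kind: of its 71 copies in the genome 69 lay outside the window, and of those 2 had a peak in all 8 lists and 2 in none. Its window copies, in Gm13247 and within the long noncoding genes Gm16889 and Gm17317, had a peak in all 8.

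**Figure D2:**
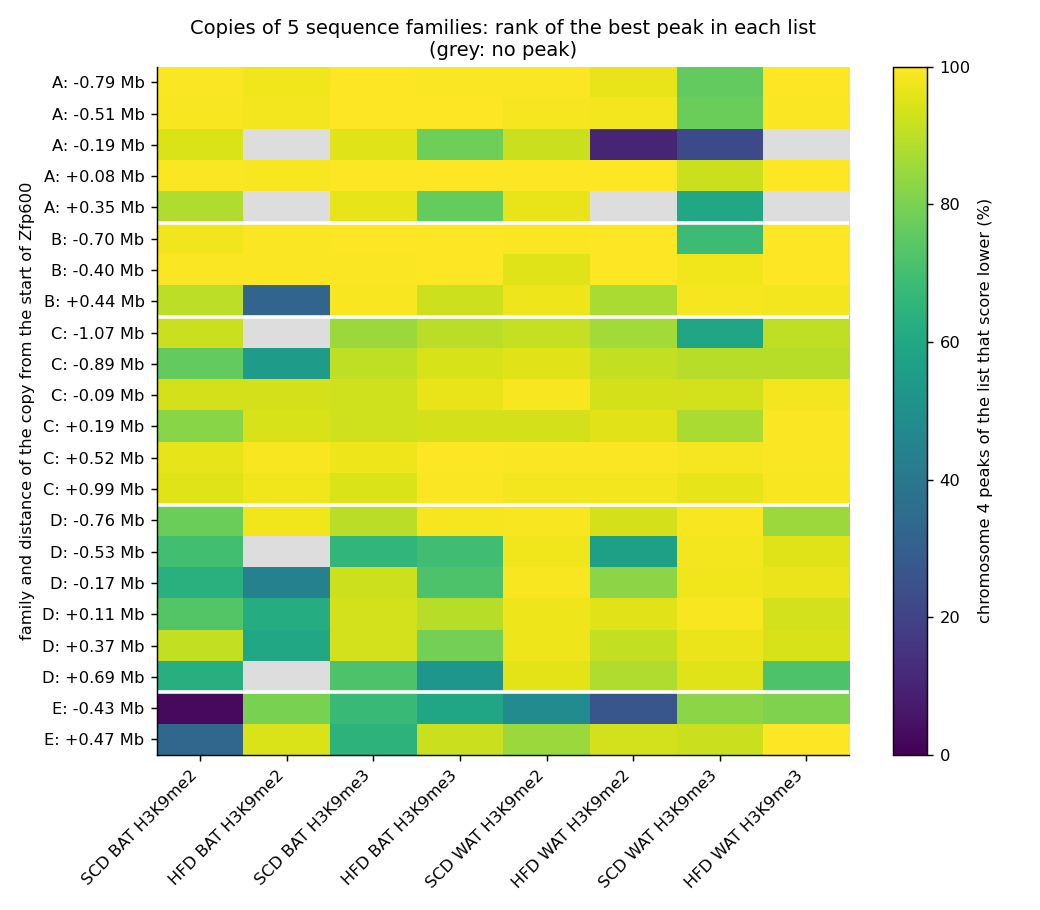
Each row is a window copy of a sequence family (A to E, with its distance in Mb from the start of Zfp600) and each column a peak list; colour gives the percent of the list's chromosome 4 peaks that score lower than the copy's best peak, and grey marks a copy without a peak. Family A runs from 22.6 to 92.1% in SCD WAT H3K9me3, and family D from 95.2 to 99.2% in that list and from 62.7 to 90.7% in SCD BAT H3K9me2.

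The number of window peaks was higher under HFD in BAT and higher under SCD in WAT. In BAT, H3K9me2 had 67 window peaks under SCD and 125 under HFD, and H3K9me3 had 75 under SCD and 103 under HFD. In WAT, H3K9me2 had 167 under SCD against 47 under HFD, and H3K9me3 had 352 under SCD against 127 under HFD. The SCD WAT lists went down to a score of 30 and the other 6 lists to 50, so each count was repeated at scores of 50 and above, which left 89 SCD WAT H3K9me2 and 185 SCD WAT H3K9me3 peaks and changed no other list. At that score HFD peaks were 65.1% (interval 57.9 to 71.8%) of the H3K9me2 window peaks of BAT, where they were 67.7% in the rest of the chromosome. They were 57.9% (50.3 to 65.2%) of the BAT H3K9me3 peaks, against 67.6% outside. Among WAT peaks they made up 34.6% (26.6 to 43.2%) for H3K9me2, against 49.1% outside, and 40.7% (35.2 to 46.4%) for H3K9me3, against 79.4% outside. HFD lists were thus longer than SCD lists of the same tissue and mark outside the window in 3 of 4 pairs at this score, and in all 4 the HFD share was lower inside the window than outside. For BAT H3K9me2 the gap was the smallest, and at scores of 80 and above the order turned (68.3% inside, 63.6% outside). The gap was largest for WAT H3K9me3.

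Relative to its own chromosome 4 peaks at all scores, the SCD list of each pair had the larger share in the window, but for BAT H3K9me2 this order did not hold throughout. H3K9me2 of BAT had 3.98% (3.10 to 5.03%) under SCD and 3.56% (2.97 to 4.22%) under HFD. At scores of 80 and above it turned to 3.51% under SCD and 4.30% under HFD, and of the bases covered on chromosome 4 the window held 4.0% under SCD and 4.15% under HFD. H3K9me3 of BAT had 4.03% (3.18 to 5.02%) under SCD and 2.69% (2.20 to 3.26%) under HFD. H3K9me2 of WAT had 5.51% (4.72 to 6.38%) under SCD and 3.06% (2.26 to 4.05%) under HFD. H3K9me3 of WAT had 16.1% (14.6 to 17.7%) under SCD and 5.97% (5.0 to 7.07%) under HFD. Whether the intervals of a pair overlap cannot decide on an effect of diet. The window was chosen by its peak counts in these lists, and the intervals leave out the spread between animals. With scores of 50 and above, the SCD WAT H3K9me3 share was 26.2% (23 to 29.7%). When chromosome 4 was divided into 50 tiles of 3 Mb, the window held the most peaks in SCD WAT H3K9me3 (352, with 12 to 246 in the other tiles) and in SCD BAT H3K9me3 (75, with 14 to 74). It ranked second in SCD BAT H3K9me2, HFD WAT H3K9me2 and HFD WAT H3K9me3, and lower in the other lists.

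**Figure D3:**
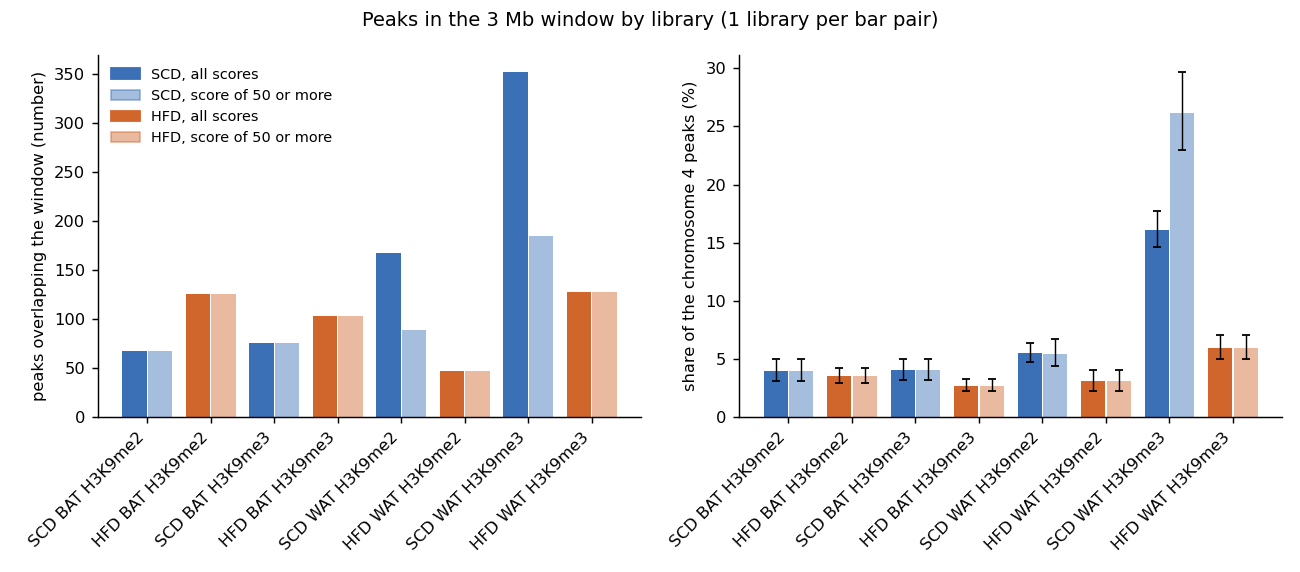
Number of peaks overlapping the window (left) and their share of the list's chromosome 4 peaks in percent (right, bars from 0, error bars exact 95% binomial intervals for counting error) in each of the 8 lists, at all scores and at scores of 50 or more. SCD WAT H3K9me3 stands out with 352 peaks and 16.1%, or 185 peaks and 26.2% at scores of 50 or more.

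The SCD WAT H3K9me3 peaks were concentrated in the zinc finger stretch and thinned out at its end. In that list 326 peaks covered 375 kb, or 19.5% of the stretch, while 26 peaks covered 1.72% of the window outside it and 1834 peaks covered 0.811% of the rest of chromosome 4. Coverage in the stretch was thus 24.1 times that of the rest of the chromosome, and 44.6 times at scores of 50 and above. In HFD WAT H3K9me3, 96 peaks covered 104 kb (5.41%) of the stretch, 4.18 times the rest. In WAT H3K9me2, 126 SCD peaks covered 136 kb (7.08%, 4.61 times the rest) and 30 HFD peaks 28.5 kb (1.49%, 2.06 times). In BAT the stretch was 2.65% (SCD) and 4.31% (HFD) covered for H3K9me2 and 3.03% and 3.0% for H3K9me3, which was 1.50 to 2.42 times the rest. In the WAT H3K9me3 pair the diets moved apart in opposite ways inside and outside: at scores of 50 and above, SCD peaks covered 2.66 times the bases of HFD peaks in the stretch, whereas in the rest of chromosome 4 HFD peaks covered 4.01 times those of SCD.

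Along the window the SCD WAT H3K9me3 coverage peaked 0.63 Mb downstream of the Zfp600 start, where 47.0 kb of a 100 kb bin (47.0%) was covered, and was nearly as high in the bin at -0.37 Mb, where peaks covered 31340 of 71463 ungapped bases and an assembly gap takes up the rest. The HFD WAT H3K9me3 list had its highest bin 0.43 Mb downstream, with 14.0 kb. The BAT lists were highest 1.43 to 1.53 Mb downstream, beyond the zinc finger genes, at 9.65 kb (SCD) and 22.2 kb (HFD) for H3K9me2 and 9.07 kb (SCD) and 8.47 kb (HFD) for H3K9me3. Outside the stretch the BAT lists had 20 SCD and 68 HFD peaks of H3K9me2, and 22 and 48 of H3K9me3.

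**Figure D4:**
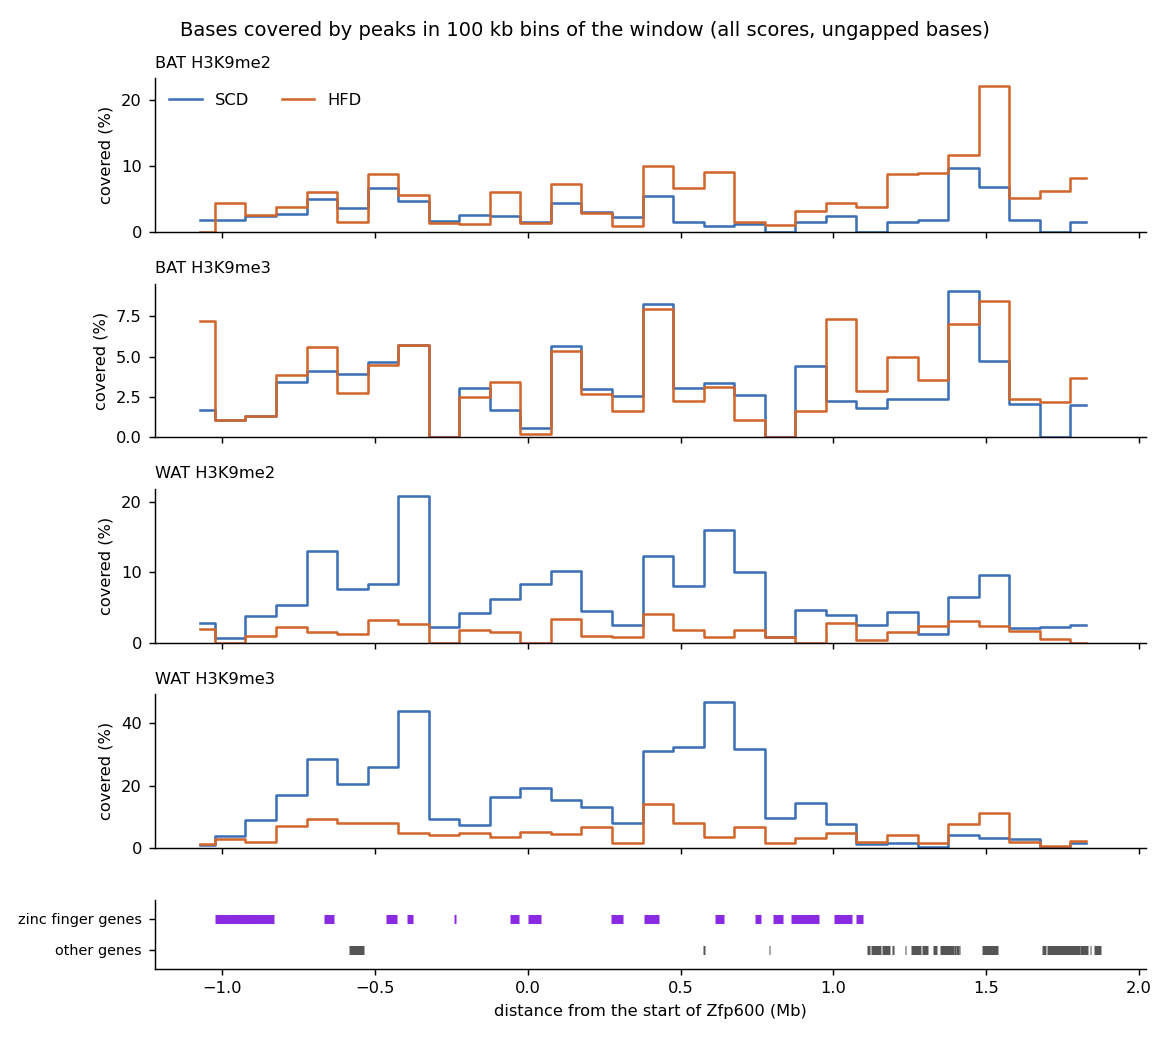
Percent of ungapped bases covered by peaks in 100 kb bins (y axis, a separate scale for each panel) against distance from the start of Zfp600 in Mb (x axis), for SCD and HFD lists of each tissue and mark, with the protein-coding genes below. SCD WAT H3K9me3 reaches 47.0% at 0.63 Mb within the zinc finger stretch, and HFD WAT H3K9me3 at most 14.0%.

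Wide peaks were more frequent in the stretch than in the rest of the chromosome in several lists. Of the 326 SCD WAT H3K9me3 peaks there, 31 (9.51%, interval 6.55 to 13.2%) were at least 2000 bp wide, against 14 of 1834 (0.763%) in the rest of chromosome 4. The largest share in the stretch was that of HFD BAT H3K9me2, 8 of 57 (14.0%, interval 6.26 to 25.8%), against 2.92% in the rest. In the other BAT lists 2 peaks each reached that width (3.64 to 4.26%, against 1.02 to 6.25% in the rest). The corresponding shares were 6.25% and 2.55% in HFD WAT H3K9me3 and 8.73% and 1.26% in SCD WAT H3K9me2, and in HFD WAT H3K9me2 none of 30 reached that width, which allows a share of up to 11.6%. The widest SCD WAT H3K9me3 peak, 146793020-146807661, spanned 14642 bp with a score of 55.2. The 3 highest-scoring of that list in the window were 146771153-146779235 (score 877, 8083 bp), 146718938-146725487 (820, 6550 bp) and 146595228-146600576 (771, 5349 bp), all within Gm16889 and Gm17317. Of these the first was overlapped by a peak of 2 lists in all, itself included, the second by 4 and the third by 7, and 95.7%, 88.2% and 69.7% of their 150-base words were at a single place in the genome. They therefore lay in the less repeated part of the stretch, where 49.2% was the share over all words. In the other 7 lists the top 3 peaks of the window lay on families A, B and C, apart from 1 in HFD BAT H3K9me2 (score 706) and 1 in HFD WAT H3K9me3 (725) at 146595094-146601717 or within it. These, like the SCD WAT H3K9me3 peak with a score of 771, lay in a merged region grouped with family E. The family E copy there is at 146592988-146595160, and of these peaks only that of 725 overlapped it, at its end.

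Repeats entered all lists. Peaks of the stretch that held no 150-base word found at a single place numbered 86 of 326 (26.4%) in SCD WAT H3K9me3 and 26 of 96 (27.1%) in HFD WAT H3K9me3, and 12.3 to 23.4% in the other 6 lists. In the rest of chromosome 4 the share ran from 1.24 to 7.12%. How such peaks arose despite the stated removal of reads with several places was not tested. The share was alike in both WAT H3K9me3 lists, whose intervals were 21.7 to 31.5% and 18.5 to 37.1%.

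Most HFD peaks of the stretch in WAT lay on SCD peaks, and not the reverse. A peak was counted as shared if it overlapped a peak of the other diet by at least 1 bp. SCD WAT H3K9me3 peaks covered 19.5% of the stretch and 0.811% of the rest of chromosome 4. Such a difference in cover raises the number of HFD peaks matched by position alone. Its part in the shares below, and in their distance from the background, was not tested. Of the 96 HFD WAT H3K9me3 peaks in the stretch, 19 (19.8%) had no SCD counterpart, against 71.5% over all of chromosome 4. Of the 326 SCD peaks, 243 (74.5%) had no HFD counterpart, against 70.9%, a share near that background. The SCD list reaches lower scores, and at scores of 50 and above 39 of 96 HFD peaks (40.6%, background 85%) and 123 of 181 SCD peaks (68.0%, background 54.3%) had no counterpart. For WAT H3K9me2, 4 of 30 HFD peaks (13.3%, background 33.5%) and 101 of 126 SCD peaks (80.2%, background 67.6%) lacked a counterpart, and at scores of 50 and above 7 of 30 (23.3%, background 42.6%) and 42 of 65 (64.6%, background 48.2%). In BAT the H3K9me3 values were 21 of 53 SCD peaks (39.6%, background 15.7%) and 23 of 55 HFD peaks (41.8%, background 57.7%), and the H3K9me2 values were 17 of 47 SCD peaks (36.2%, background 35.0%) and 27 of 57 HFD peaks (47.4%, background 67.9%). In each pair the peaks without a counterpart had a lower median score than the shared ones, such as 45.2 against 324 in SCD WAT H3K9me2 and 59.3 against 524 in SCD BAT H3K9me3.

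In SCD WAT most H3K9me2 peaks of the stretch lay on H3K9me3 peaks, and not the reverse. Of the 126 SCD WAT H3K9me2 peaks, 84.1% overlapped an SCD WAT H3K9me3 peak, against 24.9% of the 2864 in the rest of chromosome 4, and at scores of 50 and above the shares were 87.7% and 17.3%. Seen from H3K9me3, 31.3% of the 326 peaks overlapped an H3K9me2 peak, against 39.3% elsewhere, so the overlap was high from the H3K9me2 side only. Between tissues, 73.6% of the SCD BAT H3K9me3 peaks of the stretch overlapped an SCD WAT H3K9me3 peak, against 23.5% elsewhere (58.5% and 11.4% at scores of 50 and above). The larger cover of the SCD WAT H3K9me3 list in the stretch raises the number of overlaps expected by position alone, and its part in these shares was not tested.

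Zfp600 itself, a C2H2 zinc finger gene of the plus strand (chr4:146124225-146166156, 17 C2H2 matches), had peaks in the SCD WAT lists only. In SCD WAT H3K9me3, 8 peaks covered 24.1% of the gene. One of them, with a score of 57.4, spanned the start site from 251 bp before to 234 bp after it, and the highest, 4554 bp wide with a score of 540, began 9285 bp into the gene, ahead of the last coding exon that carries the zinc fingers in such genes. In SCD WAT H3K9me2, 4 peaks covered 17.2% of the gene, with scores of 45.2, 34.0, 67.9 and 30.7. The widest of these, 5279 bp, overlapped the highest H3K9me3 peak, and only it had a score of 50 or more. The HFD WAT lists and the 4 BAT lists had no peak in Zfp600.

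At their start sites most zinc finger genes had a peak in SCD WAT H3K9me3 and few in any other list. A peak within 3 kb of a start site was present for 16 of the 18 zinc finger genes in SCD WAT H3K9me3, where it was present for 22.7% of all 1355 protein-coding genes of chromosome 4, and for 13 of 18 at scores of 50 and above (background 8.34%). In HFD WAT H3K9me3 it was present for 3 of 18 (background 40.8%). The remaining counts were 5 of 18 in SCD WAT H3K9me2 (background 62.4%) and 2 in HFD WAT H3K9me2 (45.2%), 2 and 5 in SCD and HFD BAT H3K9me2 (47.9% and 51.5%), and 2 and 1 in SCD and HFD BAT H3K9me3 (59.4% and 66.8%). Outside SCD WAT H3K9me3 the zinc finger genes were thus below the share of all genes in every list. The 11 Zfp genes elsewhere on chromosome 4 differed from them, with a start site peak in 1 of 11 in SCD WAT H3K9me3, 2 in HFD WAT H3K9me3 and 5 to 8 in the other 6 lists. Start sites were not preferred within the stretch: SCD WAT H3K9me3 peaks covered 14.2% of the bases within 3 kb of the zinc finger start sites, 14.3% of the rest of these genes and 22.9% of the bases outside them. In HFD WAT H3K9me3 the values were 2.24%, 3.73% and 6.78%.

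Gm13247 (Zfp981) was alone among the 18 in having a start site peak in all 8 lists, with scores of 51.1 and 117 in SCD and HFD BAT H3K9me2, 232 and 128 in BAT H3K9me3, 52.2 (SCD) and 61.1 (HFD) for the former in WAT and 105 (SCD) and 121 (HFD) for the latter. In the lists other than SCD WAT H3K9me3 these are the scores of the family E copy. Gm13152 (Zfp982) had one in the 4 WAT lists and in no BAT list, scoring 50.1 and 78.2 for H3K9me2 and 54.3 and 92.1 for H3K9me3 in SCD and HFD. Gm13157 (Zfp984) had one in 3 lists, with 70.9 in HFD BAT H3K9me2, 58.3 in SCD WAT H3K9me2 and 146 in SCD WAT H3K9me3. So did 2610305D13Rik (Zfp979), with 83.0 in SCD BAT H3K9me3, 38.4 in SCD WAT H3K9me2 and 72.5 in SCD WAT H3K9me3. Gm13242 (Zfp980) and Gm13225 shared peaks of 53.6 in HFD BAT H3K9me2 and 83.8 in SCD WAT H3K9me3, and Gm13242 had a further one of 50.5 in SCD BAT H3K9me2. Gm13212 scored 83.5 in HFD BAT H3K9me2 and 73.0 in SCD WAT H3K9me3, and Gm13145 (Zfp978) 92.7 and 62.0 in SCD and HFD WAT H3K9me3. Gm13251 (Zfp992), Gm13139 (Zfp991) and Gm13154 (Zfp985) had one in SCD WAT H3K9me3 alone, at 147, 137 and 104. Zfp534 and Zfp933 had none in any list.

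Within gene bodies, the SCD and HFD WAT H3K9me3 peaks covered 51.9% and 3.05% of Gm13251, 37.5% and 17.7% of Gm13247, 26.9% and 0% of Gm13145 and 24.8% and 5.01% of 2610305D13Rik. Over the last coding exon, which usually encodes the zinc finger array, SCD WAT H3K9me3 had a peak in 5 of 18 genes (background 4.72% of all genes), covering the exon of Gm13145 whole with a score of 182. At all scores these exons were nonetheless the least covered class of the stretch in that list, with 11.2% of their bases under peaks. At scores of 50 and above this order changed. The exons were again at 11.2%, against 8.80% within 3 kb of the start sites, 10.4% of the rest of these genes and 17.1% outside them. The number of genes at that score was again 5, against a background of 1.92%. SCD BAT H3K9me3 had 1 such gene, Zfp534 (background 9.96%), and SCD WAT H3K9me2 had 1, Gm13139 (13.7%), which was below 50 (8.27% at 50 and above). There was none of 18 in HFD WAT H3K9me3 (9.67%) and HFD WAT H3K9me2 (5.76%), nor in SCD BAT H3K9me2 (8.34%), HFD BAT H3K9me2 (18.9%) and HFD BAT H3K9me3 (16.5%).

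**Figure D5:**
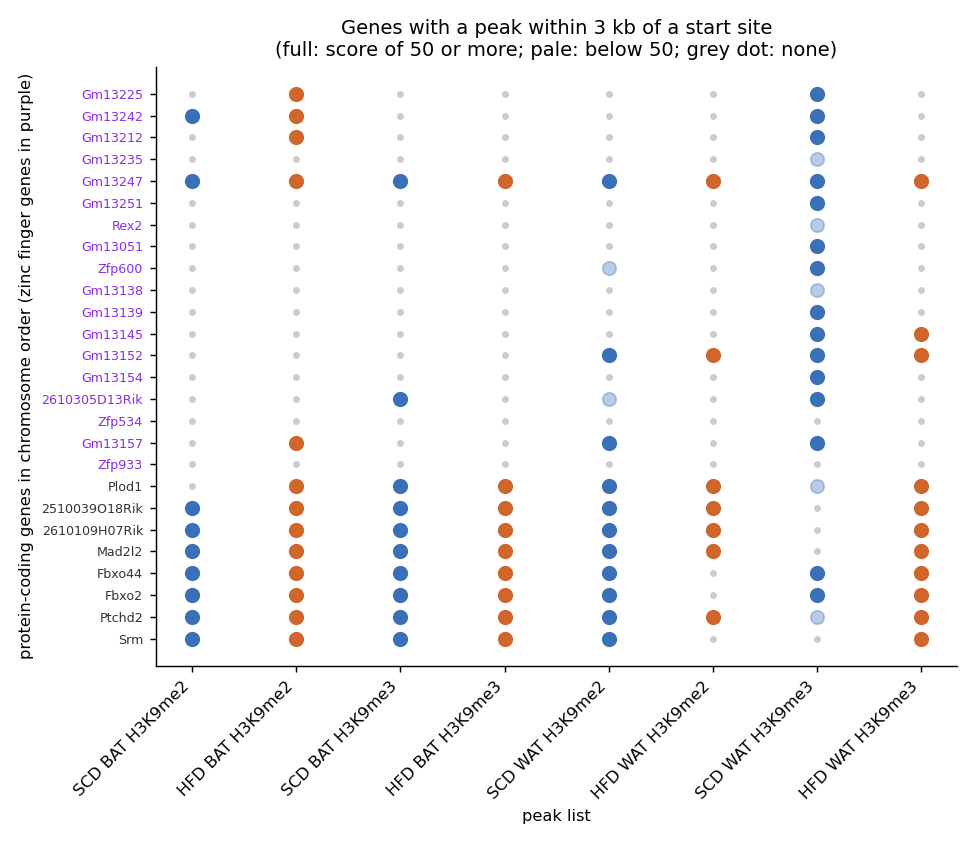
The 18 zinc finger genes (purple) and the 8 neighbours with start site peaks in the most lists, in chromosome order (rows), and peak lists (columns), with a dot for a peak within 3 kb of a start site, full for a score of 50 or more and pale below 50. In the SCD WAT H3K9me3 column 16 of 18 zinc finger genes have a dot, in the BAT columns 1 to 5 of 18, and Ptchd2 has one in all 8 columns.

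The other 27 genes of the window, most of them beyond the stretch, had start site peaks at shares near those of all genes of the chromosome. In BAT H3K9me2 the counts were 11 under SCD (40.7%, background 47.9%) and 13 under HFD (48.1%, background 51.5%). In BAT H3K9me3 they were 14 under SCD (51.9%, background 59.4%) and 17 under HFD (63%, background 66.8%). In WAT, H3K9me2 had 14 under SCD (51.9%, background 62.4%) and 12 under HFD (44.4%, background 45.2%), and H3K9me3 had 6 under SCD (22.2%, background 22.7%) and 13 under HFD (48.1%, background 40.8%). The 6 include 2610036A22Rik and a model of Gm13151, which lie inside the stretch. Ptchd2, of the dispatched family of membrane proteins, had one in all 8 lists, scoring 55.5 and 200 in SCD and HFD BAT H3K9me2, 274 and 515 in BAT H3K9me3, 102 (SCD) and 168 (HFD) for H3K9me2 of WAT, and 33.2 (SCD) and 234 (HFD) for H3K9me3 of WAT. The start sites of 2610109H07Rik (Draxin, an axon guidance protein) and Mad2l2 (a subunit of DNA polymerase zeta) shared peaks in 7 lists, of up to 726 in HFD BAT H3K9me3 and with none in SCD WAT H3K9me3. The same 7 lists held one for 2510039O18Rik, of up to 617. Fbxo2 and Fbxo44, which encode substrate adaptors of ubiquitin ligases, had peaks of up to 404 in 7 lists, including 70.0 in SCD WAT H3K9me3. Plod1, a collagen lysyl hydroxylase, also had one in 7 lists, between 34.6 and 148, and Srm, which encodes spermidine synthase, in 6, between 62.1 and 548, with none in SCD WAT H3K9me3 or HFD WAT H3K9me2.

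Among regions seen in 1 list alone, the highest-scoring differed in place as well. In HFD BAT H3K9me3 it was 147174053-147175857 inside Gm13157 (score 307), and in SCD WAT H3K9me3 146615465-146616615 (224). HFD BAT H3K9me2 had 147954552-147956583 inside Exosc10 (185) and HFD WAT H3K9me3 145826609-145827377 outside genes (136). In the remaining lists they scored 55.2 to 83.0. Of the 300 regions of the window seen in 1 list, 194 were in SCD WAT H3K9me3, and HFD BAT H3K9me2 followed with 33. Of the 181 of these in the stretch, 80 had a score of 50 or more (median of all 47.2, highest 224).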

How the data were processed

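Peaks of H3K9me2 and H3K9me3 ChIP-seq were taken from 8 lists, 1 per diet, tissue and mark; the 4 input libraries were not used here. Per the study's methods, the authors used FastQC and Trim Galore for quality and trimming, Bowtie2 (version 2.4.2) for alignment to the mm9 build and MACS2 for peaks, after discarding reads that mapped to several places; whether inputs entered the calling, and the sequencing depth, are not given in the sources used here. The deposited lists give chromosome, start, end and a score, read as the MACS score. Starts were made 1-based. Shares carry exact 95% binomial intervals; overlap meant at least 1 bp. Genes came from GENCODE vM1 of the same build, with current symbols from RefSeq; C2H2 matches were counted in translated coding sequence because no protein table was at hand, a change from the planned table. Repeat masking was not marked in the genome and not used. Words of 50, 100 and 150 bases were counted over the whole genome. Similar regions and copies were found with blastn 2.17.0 (families: 90% identity over 50% of the shorter region; copies: 85% identity over 60% of the query). Aligned pieces of a copy up to 3000 bp apart were joined, and a peak anywhere in the joined span was counted. Python 3.11.15, pandas 2.3.3 and scipy 1.17.1 were used, and overlap and word counts were tested on simulated data. Named were Zfp600, up to 12 zinc finger genes and 8 neighbours with start site peaks in the most lists (ties by score), the 3 highest and the widest window peaks of each list, and regions in all 8 lists or with the highest score in 1. The window and these lists were chosen with earlier results of these data known. Scores of at least 50 or 80, equal list lengths, merging within 1 kb and the zinc finger stretch alone were tried as alternatives.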

Additional observations from a re-analysis of the deposited data

Results flagged for a closer look

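The number of window peaks moved in opposite directions with diet in the tissues, with 1 library each, and the difference was not tested. HFD minus SCD was 58 for H3K9me2 in BAT and -120 in WAT, and 28 for H3K9me3 in BAT and -225 in WAT. At scores of 50 and above the BAT differences were again 58 and 28, and the WAT differences were -42 for H3K9me2 and -58 for H3K9me3. For H3K9me3 the opposite sign was lost when the lists of a pair were made equal in length, where HFD peaks were 43.6% of the BAT window peaks, and in the zinc finger stretch the BAT H3K9me3 counts were 53 under SCD and 55 under HFD. As a share of chromosome 4 peaks the window was lower under HFD in all 4 pairs at all scores and at scores of 50 and above, but not for BAT H3K9me2 at scores of 80 and above (3.51% under SCD, 4.30% under HFD).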

How the results depend on the processing

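Of 60 values under an alternative, 40 stayed within the counting interval of the value reported, 19 left it and 1 changed side. The 40 include values that could not change. At scores of at least 50, lists that start at 50 stay as they are. With equal numbers of peaks, so does the shorter list of a pair. The 40 are therefore no measure of stability. At scores of at least 50, the window share of SCD WAT H3K9me3 was 26.2%, and the HFD share of window peaks was 34.6% for WAT H3K9me2 and 40.7% for WAT H3K9me3, because these SCD lists alone reach below 50. At scores of at least 80 the window share was 4.30% in HFD BAT H3K9me2 (above the 3.51% of SCD, which turned that pair), 4.09% in HFD WAT H3K9me2 and 37.3% in SCD WAT H3K9me3, and the HFD share was 39.0% for WAT H3K9me2 and 38.4% for WAT H3K9me3. With equal numbers of peaks per pair, the HFD share was 54.7% for BAT H3K9me2 and 34.3% for WAT H3K9me2, and for BAT H3K9me3 it turned from 57.9% to 43.6%, since this setting drops the lowest-scoring peaks of the longer HFD list. Merging within 1 kb gave SCD WAT H3K9me3 a window share of 12.9%. In the zinc finger stretch alone, which holds fewer peaks by construction, the shares were 2.79% and 1.62% (SCD and HFD BAT H3K9me2), 2.85% and 1.44% (BAT H3K9me3), 4.16% and 1.95% (WAT H3K9me2) and 4.52% (HFD WAT H3K9me3), and the HFD share was 54.8% for BAT H3K9me2. The causes were otherwise not tested. No paired analysis was possible because each group is 1 library. Depth is unknown for these lists, so a place without a peak is not shown to lack the mark.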
